A study of Mus musculus with 6 samples.

Results

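The angiopoietin, Tie and apelin signalling genes are a set of 8 genes that act on blood vessels: the ligands Angpt1 and Angpt2, their receptor Tek (also called Tie2), the related receptor Tie1, the peptide ligand Apln, its receptor Aplnr, and the secreted proteins Angptl2 and Thbs1. They were chosen by name, with earlier results of these data known. Of the 8 genes, 7 had a probe set annotated to exactly 1 gene symbol among the 22180 genes measured, and Angptl2 was not analysed here. Mouse colorectal cancer was grown in 1 of 2 sites, either white adipose tissue, which stores fat, or a tissue that is not adipose. They were collected at 1 to 1.5 cm3, and total RNA of 3 tumours from each site, each from its own mouse, was hybridised to 1 array per tumour. All tumours of both groups are labelled only as colorectal cancer and by the site of growth: the sources used here give no cancer line, mouse strain, mouse age or name of the non-adipose site. The comparison asked whether these vessel signals differed between tumours of the 2 sites.

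Tek is a tyrosine kinase receptor found mainly on endothelial cells, the cells that line vessels. Angiopoietin 1, secreted largely by cells around the vessel, activates it and keeps vessels quiescent, whereas angiopoietin 2, released by activated endothelium, can act against it and loosens the vessel wall. Tie1 has no well-established ligand of its own and modulates Tek. Apelin is a short peptide made by sprouting endothelial cells, and in many tissues by cells short of oxygen, and its G protein-coupled receptor sits on endothelium. Thrombospondin 1 is a large matrix protein that restrains vessel growth.

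The arrays were alike in level, with medians of 5.66 to 5.69 on the log2 scale, and correlated across genes at 0.983 to 0.995. Some carried signals of other tissues. White adipose replicate 1 had a mean of 8.26 over 7 skin epithelium markers, against 5.19 and 5.33 in the other white adipose arrays. It is called the skin-marked array below. The non-adipose replicates 1, 2 and 3 had skin marker means of 5.33, 5.22 and 6.10. Replicate 3 of that site was raised in part of the list, with Krt14 at 7.23, Dsg3 at 6.09, Trp63 at 7.26 and Krt15 at 5.30. Its Krt10 (6.05), Krt1 (5.20) and Lor (5.59) lay near the values of non-adipose replicate 1 (6.06, 5.19 and 5.57). In white adipose replicate 1, Krt10, Krt1 and Lor stood at 11.59, 10.44 and 8.60. Non-adipose replicates 1 and 3 had means of 6.27 and 6.88 over 10 skeletal muscle markers, against 5.18 to 5.41 in the other arrays. The part of these tissues in the differences of the vessel genes was not tested, so each difference is also given without white adipose replicate 1 and without the arrays that moved it most. Of 10 intestinal epithelium markers, 3 (Krt8, Krt18 and Cdh1) lay above the median signal of all genes, while Epcam lay at percentile 29.1 and Cdx2 at percentile 38.9. The adipocyte hormone gene Adipoq lay at percentile 15.6, with 4.10 to 4.27 in the white adipose and 4.14 in all non-adipose arrays. Over 9 adipocyte markers, white adipose replicate 3 had the highest mean, 5.88, against 5.42 to 5.63 in the other arrays.

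No difference between the sites passed the test in any of the 7 genes. Angpt1 had the highest positive difference, a mean 1.44-fold higher in white adipose tumours, and Apln the lowest, a mean 1.44-fold lower there. The 4 members of the angiopoietin and Tie system all had higher means in white adipose tumours, and Apln, Aplnr and Thbs1 had lower means. Of the 22180 genes, 11033 had a higher and 11147 a lower mean in white adipose tumours. Angpt4, an angiopoietin gene outside the members, had a lower mean there (-0.027). Limma gave every one of the 7 an adjusted p = 0.936. It called 0% of the 22180 genes, in either direction, at the adjusted threshold of 0.05. At an unadjusted p under 0.05 it called 841 genes, 3.79% of all (1.66% higher and 2.13% lower in white adipose tumours), and 0 of the 7. The groups of arrays overlapped in all 7. Over all genes, 7.31% had groups that did not overlap, 3.34% with white adipose higher and 3.97% with white adipose lower. The median difference over the 7 was 0.094 on the log2 scale, against -0.00043 over all genes. In bulk tumour RNA, fewer cells of a type and less RNA per cell cannot be told apart.

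**Figure D1:**
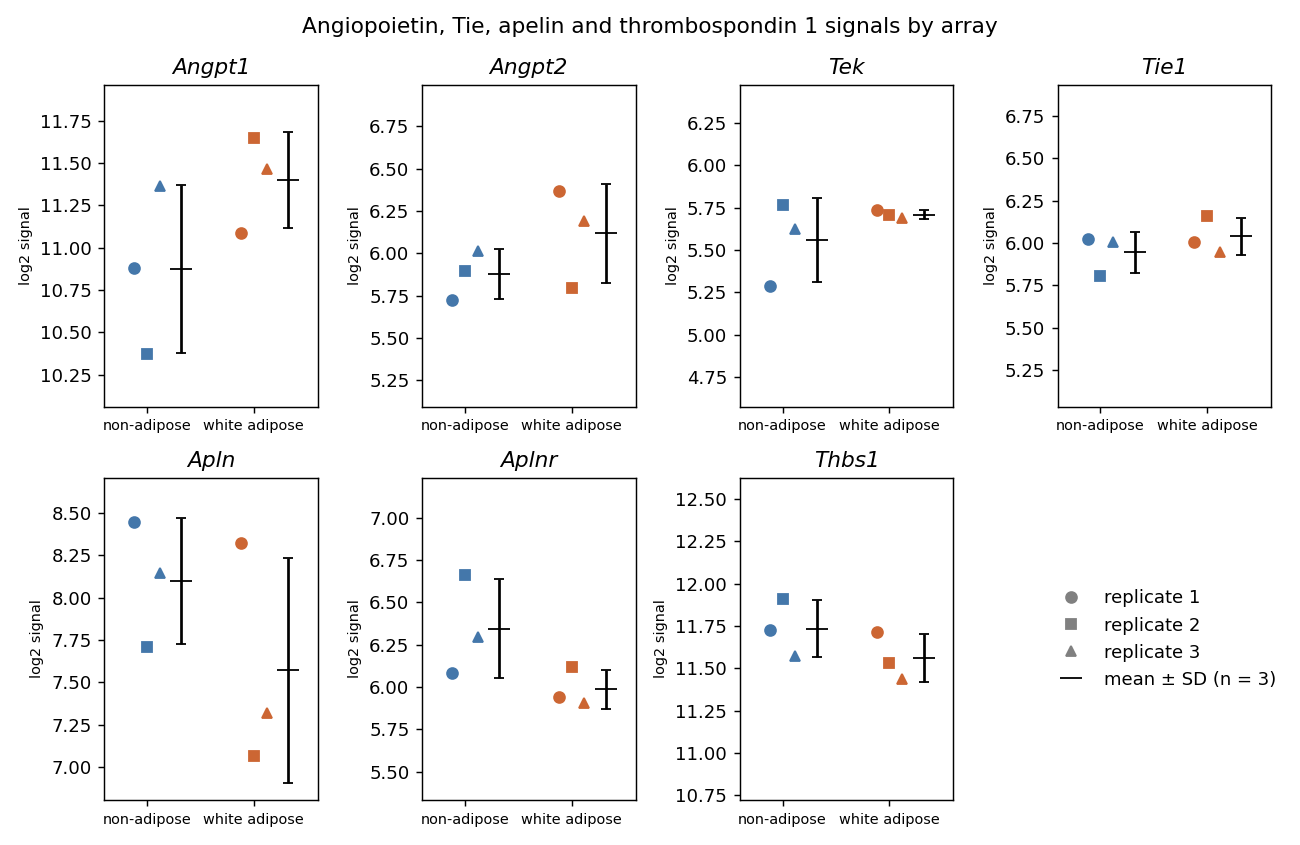
Log2 signal (vertical axis) of the 7 measured genes in each tumour array, by site (horizontal axis). Symbols give the replicate, and the bar gives mean ± SD (n = 3). All panels span the same number of log2 units, and levels are not comparable between genes. The groups overlap in every panel. Apln has the widest range and Tie1 the narrowest.

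Angpt1, the activating ligand of Tek, stood at 10.88, 10.37 and 11.37 on the log2 scale in non-adipose replicates 1, 2 and 3, and at 11.09, 11.65 and 11.46 in white adipose replicates 1, 2 and 3. The highest 2 arrays were thus white adipose and the lowest 2 non-adipose, and the groups overlapped because non-adipose replicate 3 lay above white adipose replicate 1. The means were 10.87 ± 0.50 (SD, n = 3) and 11.40 ± 0.29 (SD, n = 3). The difference of 0.53 (SE 0.27, limma 95% confidence interval -0.14 to 1.19) did not pass, with an unadjusted limma p = 0.0999 and a two-sided exact permutation p of 0.2. The smallest p that 3 against 3 arrays allow in this permutation test is 0.1. The difference was 0.28 without non-adipose replicate 2 and 0.77 without non-adipose replicate 3. With the skin-marked array left out it was 0.68.

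Angpt1 was read by 2 probe sets, which makes it the member with a second reading of the same RNA. The dimmer probe set gave 6.69, 5.99 and 6.93 in the non-adipose arrays and 6.65, 7.39 and 7.23 in the white adipose arrays, in the order of replicates. It ranked white adipose replicate 2 highest and non-adipose replicate 2 lowest, as the brighter one did, and its difference between sites was 0.55. Both probe sets thus gave the same ends of the range. The SD of the brighter one over the 6 arrays, 0.46, was at percentile 97.2 among all genes. Ranked by mean signal, Angpt1 lay at percentile 99.4.

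**Figure D2:**
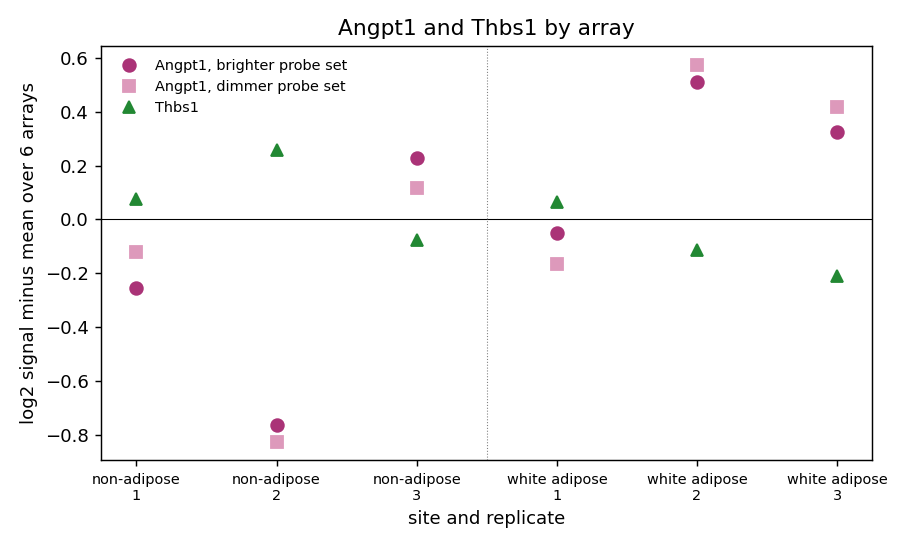
Log2 signal minus the mean over the 6 arrays (vertical axis) for both Angpt1 probe sets and for Thbs1, by site and replicate (horizontal axis). The Angpt1 probe sets lie close together on every array, lowest in non-adipose replicate 2 and highest in white adipose replicate 2. Thbs1 lies on the other side of 0 from the brighter Angpt1 probe set on all 6 arrays.

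Angpt2, the ligand that activated endothelium releases, stood at 5.72, 5.90 and 6.02 in the non-adipose arrays and at 6.37, 5.80 and 6.19 in the white adipose arrays. White adipose replicates 1 and 3 lay above all non-adipose arrays and replicate 2 lay among them. Ranked by mean signal, Angpt2 lay at percentile 51.0 of all genes, with no detection call beside it. The means were 5.88 ± 0.15 (SD, n = 3) and 6.12 ± 0.29 (SD, n = 3). The difference of 0.24 (SE 0.16, 95% confidence interval -0.15 to 0.63) did not pass, with an unadjusted limma p = 0.186 and an exact permutation p of 0.3. Leaving out the skin-marked white adipose replicate 1 gave 0.11, and leaving out replicate 2 of the same site gave 0.40. Angpt2 and Angpt1 were highest in different white adipose tumours, and over the 6 arrays their Pearson r was 0.17 (exact permutation p = 0.749) and Spearman's rho 0.14 (exact permutation p = 0.803), and r was 0.46 without the 2 arrays farthest from the Angpt1 median.

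Tek, the angiopoietin receptor, stood at 5.28, 5.76 and 5.62 in the non-adipose arrays and at 5.73, 5.70 and 5.69 in the white adipose arrays. The white adipose tumours lay within 0.049 of each other and inside the range of the non-adipose ones. The means were 5.56 ± 0.25 (SD, n = 3) and 5.71 ± 0.025 (SD, n = 3), with a difference of 0.15 (SE 0.13, 95% confidence interval -0.16 to 0.46; unadjusted limma p = 0.276, exact permutation p = 0.4). The difference was 0.015 without non-adipose replicate 1, the lowest array, and 0.25 without non-adipose replicate 2, the highest. With the skin-marked array left out it stayed at 0.14.

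Tie1, the partner receptor, stood at 6.02, 5.81 and 6.004 in the non-adipose arrays and at 6.01, 6.16 and 5.95 in the white adipose arrays. Of the 7 genes it varied least, with a range of 0.35 over all arrays. The means were 5.95 ± 0.12 (SD, n = 3) and 6.04 ± 0.11 (SD, n = 3), and the difference was 0.094 (SE 0.091, 95% confidence interval -0.13 to 0.32; unadjusted limma p = 0.344, exact permutation p = 0.5). It became 0.025 when non-adipose replicate 2 was left out and 0.14 when white adipose replicate 3 was. Leaving out the skin-marked array gave 0.11, and leaving out the muscle-marked non-adipose replicates 1 or 3 gave 0.13 or 0.12. Tek and Tie1 are both used as endothelial markers, and their order over the arrays differed: non-adipose replicate 2 was the highest for Tek and the lowest for Tie1. Their Pearson r was -0.24 (exact permutation p = 0.464) and Spearman's rho -0.37 (exact permutation p = 0.497), and r was -0.58 without the 2 arrays farthest from the Tek median. Among all genes ranked by mean signal, Tek lay at percentile 44.0 and Tie1 at percentile 50.8, with no detection call beside them.

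The rest of the Tie pathway held no gene past the test. Of 20 measured, the 4 above included, 11 had a higher and 9 a lower mean in white adipose tumours, with a median difference of 0.021, and none passed the adjusted threshold or an unadjusted p under 0.05. Besides the 4, Dok2, an adaptor that docks on the activated receptor, was at -0.22 (SE 0.093) and Grb14, another adaptor, at 0.16 (SE 0.10). They had the smallest unadjusted limma p-values, 0.0519 and 0.174. Ptprb, the endothelial phosphatase that dampens Tek, was at -0.025 (SE 0.16), and the third angiopoietin gene, Angpt4, was at -0.027 (SE 0.13). The array means of the list were 7.28, 7.29 and 7.43 in non-adipose and 7.39, 7.41 and 7.42 in white adipose tumours, so the groups overlapped.

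**Figure D3:**
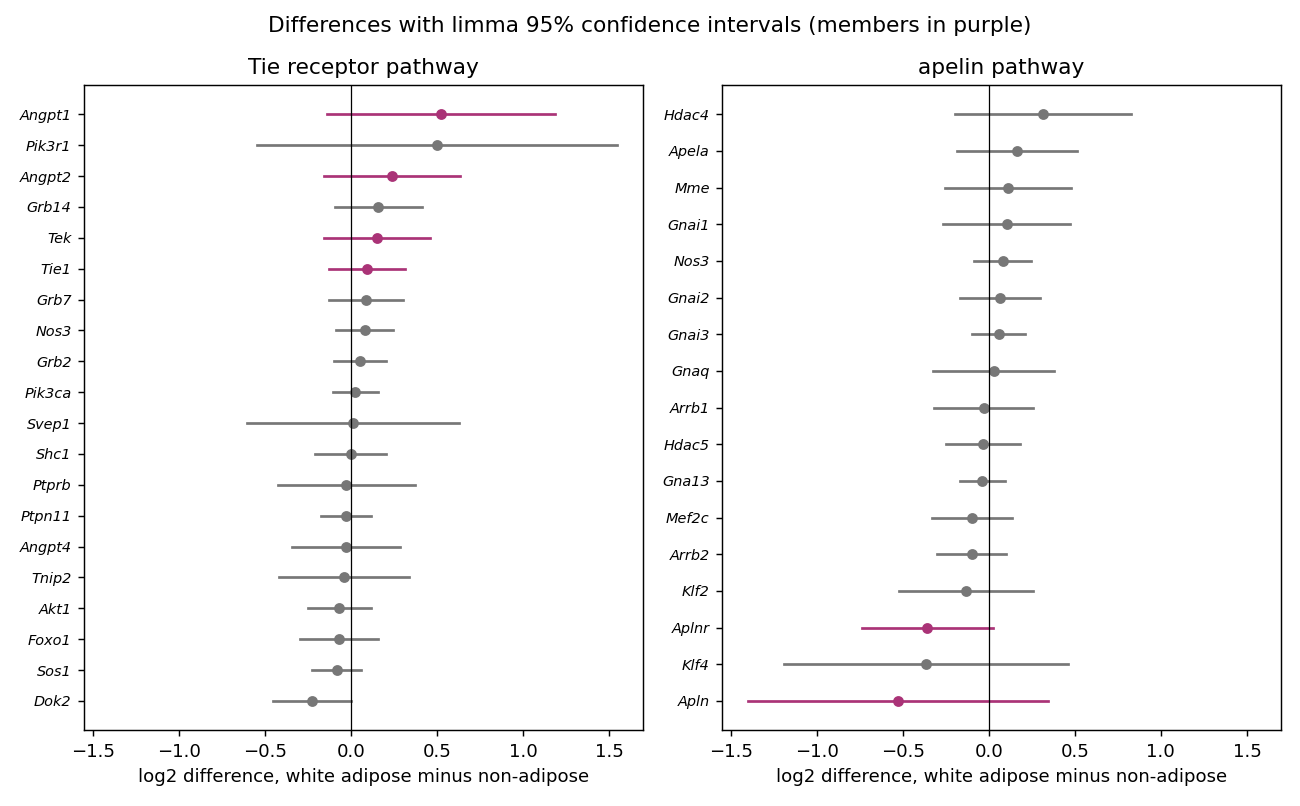
Log2 difference between white adipose and non-adipose tumours (horizontal axis) with limma's 95% confidence interval for the 20 Tie pathway genes and the 17 apelin pathway genes measured, ordered by the difference. The 6 members in these lists are in purple. Angpt1 has the highest difference of the Tie pathway at 0.53 and Apln the lowest of the apelin pathway at -0.53, and the intervals of all 6 members include 0.

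Apln, the apelin precursor gene, stood at 8.44, 7.71 and 8.14 in the non-adipose arrays and at 8.32, 7.07 and 7.32 in the white adipose arrays. White adipose replicates 2 and 3 were the lowest of all 6, and white adipose replicate 1 was the second highest. The means were 8.10 ± 0.37 (SD, n = 3) and 7.57 ± 0.66 (SD, n = 3). The difference of -0.53 (SE 0.36, 95% confidence interval -1.40 to 0.34) did not pass, with an unadjusted limma p = 0.190 and an exact permutation p of 0.3. Leaving out the skin-marked array, white adipose replicate 1, gave -0.90 (limma's adjusted p = 0.571), and leaving out replicate 2 of that site gave -0.28. The SD of Apln over the 6 arrays, 0.56, lay at percentile 98.3 of all genes.

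Apln varied together with genes induced by low oxygen. The mean over 15 hypoxia targets was 9.21, 8.90 and 9.12 in the non-adipose arrays and 9.25, 8.39 and 8.77 in the white adipose arrays, nearly the order of Apln: white adipose replicate 1 and non-adipose replicate 1 at the top, white adipose replicate 2 at the bottom. Over the 6 arrays Pearson's r between Apln and this mean was 0.96 (exact permutation p = 0.00278, adjusted p = 0.0194 over 7 relations) and Spearman's rho was 0.94 (exact permutation p = 0.0167, adjusted p = 0.117). The list of targets was chosen with earlier results of these data known, so these p-values do not come from a choice blind to the data. Without white adipose replicates 2 and 3, the arrays farthest from the Apln median, r was 0.96. Of the 15 targets, 11 correlated with Apln above 0.8, as did 948 of the 22163 other genes that varied (4.28%, the targets included). Ldha, the lactate dehydrogenase gene, led with 0.97, followed by the glucose transporter Slc2a1, adrenomedullin (Adm) and the mitophagy gene Bnip3, also at 0.97. Egln3, an oxygen-sensing hydroxylase, went the other way at -0.43, and Vegfa, the main endothelial growth factor, was at 0.61. The targets themselves did not pass between sites: 13 of 15 had a lower mean in white adipose tumours, with a median of -0.28 (-0.067 with white adipose replicate 2 left out and -0.45 with replicate 1 of that site left out). Hilpda, a lipid droplet gene at -0.28 (SE 0.11), was the 1 target of 15 with an unadjusted limma p under 0.05, against 3.79% of all genes. Car9, a carbonic anhydrase, was at -0.80 (SE 0.41).

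**Figure D4:**
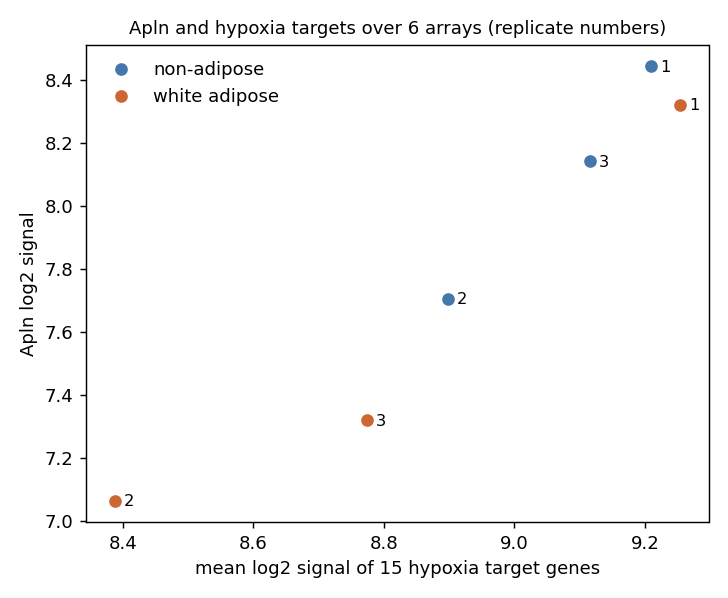
Apln log2 signal (vertical axis) against the mean log2 signal of 15 hypoxia targets (horizontal axis) in the 6 arrays, coloured by site and numbered by replicate. The points lie along a line with a Pearson r of 0.96, with white adipose replicate 1 beside non-adipose replicate 1 and white adipose replicate 2 lowest on both axes.

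The sequence before the Apln start site is shown beside those of Ldha, Slc2a1 and Adm, the 3 targets whose signals were closest to it. Hypoxia-inducible factors bind a short core, searched here as ACGTG and GCGTG on both strands (ACGTG overlaps its own reverse complement in CACGTG, which counts as 2 matches). The 250 bases before the start are given 5′ to 3′ on the gene's strand, from RefSeq on build GRCm38.p6, with matches in capitals. They cover chrX:48034854-48035103 (minus strand) for Apln, chr7:46845554-46845803 (plus strand) for Ldha, chr4:119108495-119108744 (plus strand) for Slc2a1 and chr7:110627407-110627656 (plus strand) for Adm.
Apln: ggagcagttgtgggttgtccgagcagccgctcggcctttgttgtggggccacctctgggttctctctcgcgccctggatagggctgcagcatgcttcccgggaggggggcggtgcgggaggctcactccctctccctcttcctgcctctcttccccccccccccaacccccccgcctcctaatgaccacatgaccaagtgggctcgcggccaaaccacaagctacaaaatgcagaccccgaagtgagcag
Ldha: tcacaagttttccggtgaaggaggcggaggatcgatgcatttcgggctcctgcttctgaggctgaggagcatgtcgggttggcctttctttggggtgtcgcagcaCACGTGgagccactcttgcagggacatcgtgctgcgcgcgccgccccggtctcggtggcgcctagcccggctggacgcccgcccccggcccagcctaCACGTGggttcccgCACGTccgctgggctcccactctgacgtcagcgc
Slc2a1: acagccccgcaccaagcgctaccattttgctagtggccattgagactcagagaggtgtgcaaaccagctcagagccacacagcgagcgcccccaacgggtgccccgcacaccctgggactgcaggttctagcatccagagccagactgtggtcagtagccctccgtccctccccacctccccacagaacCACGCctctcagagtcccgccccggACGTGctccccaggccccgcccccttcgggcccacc
Adm: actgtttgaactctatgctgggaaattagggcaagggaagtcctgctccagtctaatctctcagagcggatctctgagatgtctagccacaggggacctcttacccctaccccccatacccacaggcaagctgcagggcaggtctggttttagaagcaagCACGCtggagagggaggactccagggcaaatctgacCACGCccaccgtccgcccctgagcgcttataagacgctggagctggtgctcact
The Apln window held 0 matches, the Ldha window 5, and the Slc2a1 and Adm windows 2 each. A second start of Ldha in the table had 1 match. Of the 32851 windows of this length in the table, 38.6% held a match. Among the measured hypoxia targets 14 had an entry, with 20 windows between them, and 15 of those windows held a match. Tek, Tie1 and Angptl2, the other members with an entry, had 0 matches, so the 4 member windows held none. These letters are a description of the windows only.

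Aplnr, the apelin receptor, stood at 6.08, 6.66 and 6.29 in the non-adipose arrays and at 5.94, 6.12 and 5.91 in the white adipose arrays. The highest 2 arrays were non-adipose and the lowest 2 white adipose. The groups overlapped by 1 pair, since white adipose replicate 2 lay just above non-adipose replicate 1. The means were 6.35 ± 0.29 (SD, n = 3) and 5.99 ± 0.12 (SD, n = 3), 1.28-fold lower in white adipose tumours. The difference was -0.36 (SE 0.16, 95% confidence interval -0.74 to 0.022), with an unadjusted limma p = 0.0607, the smallest of the 7, and an exact permutation p of 0.2. It was -0.20 without non-adipose replicate 2 and -0.49 without non-adipose replicate 1, and -0.33 with the skin-marked array left out. Ligand and receptor both had lower means in white adipose tumours. Over the arrays Pearson's r between Apln and Aplnr was -0.022 (exact permutation p = 0.971) and Spearman's rho -0.086 (exact permutation p = 0.919). Without white adipose replicates 2 and 3, the arrays farthest from the Apln median, r was -0.94 over the 4 that remained, so the value rests on which arrays are used. Aplnr lay at percentile 53.6 by mean signal.

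Of 17 measured apelin pathway genes, Apln and Aplnr included, 8 had a higher and 9 a lower mean in white adipose tumours, with a median of -0.030. None had an unadjusted p under 0.05. Hdac4, a histone deacetylase, was at 0.32 (SE 0.21) and Arrb2, a beta-arrestin that binds activated receptors, at -0.10 (SE 0.083). Klf4, a transcription factor gene, was at -0.36 (SE 0.34). Apela, the second ligand of the receptor, lay at percentile 9.59 by mean signal, at 3.35 to 3.66 in non-adipose and 3.53 to 3.94 in white adipose tumours.

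Thbs1, thrombospondin 1, stood at 11.72, 11.91 and 11.57 in the non-adipose arrays and at 11.71, 11.53 and 11.44 in the white adipose arrays. White adipose replicates 2 and 3 were the lowest of all, and replicate 1 lay among the non-adipose tumours. The means were 11.74 ± 0.17 (SD, n = 3) and 11.56 ± 0.14 (SD, n = 3). The difference of -0.17 (SE 0.11, 95% confidence interval -0.45 to 0.10) did not pass, with an unadjusted limma p = 0.179 and an exact permutation p of 0.2. It was -0.086 when non-adipose replicate 2 was left out and -0.25 when replicate 3 of that site was, and also -0.25 with the skin-marked array left out. Thbs1 lay at percentile 99.7 by mean signal.

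Thbs1 ran opposite to Angpt1 over the arrays. Of the 21 pairs among the 7 genes this was the strongest relation, picked after its values were seen, with a Pearson r of -0.94 (exact permutation p = 0.00833, adjusted p = 0.175 over the 21 pairs) and a Spearman rho of -0.94 (exact permutation p = 0.0167, adjusted p = 0.350). Without non-adipose replicate 2 and white adipose replicate 2, the arrays farthest from the Angpt1 median, r was -0.93. No pair passed after adjustment.

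Among 15 measured genes of the thrombospondin pathway, Thbs1 included, 10 had a higher and 5 a lower mean in white adipose tumours, with a median of 0.022, and none had an unadjusted p under 0.05. Thbs2, the closest relative of Thbs1, was at 0.27 (SE 0.15), opposite in sign to Thbs1, and Sdc1, a cell-surface proteoglycan, was at 0.15 (SE 0.078). The thrombospondin receptor Cd36, which also takes up fatty acids, was at 0.83 (SE 0.56), and the receptor Cd47 at -0.097 (SE 0.073). Of the angiopoietin-like family, 4 of 7 genes were measured, 2 higher and 2 lower, with a median of -0.033. Angptl1 was at 0.20 (SE 0.14), Angptl7 at -0.13 (SE 0.15), and Angptl4, a secreted inhibitor of lipoprotein lipase, at -0.18 (SE 0.22).

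The mean signal of endothelial markers overlapped between the sites. Over 18 endothelial markers the array means ran from 6.399 to 6.643 in non-adipose and from 6.46 to 6.57 in white adipose tumours, with 8 higher, 10 lower and a median of -0.025. The junction genes Pecam1 and Cdh5 were at -0.026 (SE 0.14) and 0.017 (SE 0.21). Cldn5, a tight junction gene, was the 1 of 18 markers with an unadjusted limma p under 0.05, at 0.21 (SE 0.074). Its groups did not overlap (5.46 to 5.67 in non-adipose and 5.76 to 5.84 in white adipose tumours), and it lay at percentile 45.1 by mean signal. Over all genes, 3.79% had such a p-value and 7.31% had groups that did not overlap. Tek correlated with the endothelial mean at a Pearson r of 0.52 (exact permutation p = 0.331) and a Spearman rho of 0.20 (exact permutation p = 0.714), and r was 0.18 without the 2 arrays farthest from the Tek median. Aplnr correlated with it at 0.28 (exact permutation p = 0.607) and a rho of 0.43 (exact permutation p = 0.419). Without the 2 arrays farthest from the Aplnr median, r was 0.58. Angpt2 and Apln, both genes of sprouting tip cells, had a Pearson r of 0.13 (exact permutation p = 0.80) and a rho of -0.029 (exact permutation p = 1). Without the 2 arrays farthest from the Angpt2 median, r was 0.038. Of the 7 relations computed, Apln with the hypoxia targets was the only one whose adjusted Pearson p was under 0.05. Its adjusted Spearman p, also by exact permutation, was 0.117. The members and lists were chosen with earlier results of these data known, so neither p comes from a choice blind to the data.

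Of 12 other tip cell genes, 5 had a higher and 7 a lower mean in white adipose tumours, with a median of -0.090 that became 0.080 without non-adipose replicate 3. The basement membrane collagen genes Col4a1 and Col4a2 had unadjusted limma p-values under 0.05, at -0.25 (SE 0.080) and -0.16 (SE 0.060), and their groups did not overlap. Neither passed over all genes, where limma's adjusted p was 0.936. Of all genes, 3.79% had an unadjusted limma p under 0.05 and 7.31% had groups that did not overlap. Cells around the vessel, a usual source of Angpt1, were followed by 14 pericyte and smooth muscle markers, 5 higher and 9 lower with a median of -0.061, among them Pdgfrb at 0.13 (SE 0.16) and the potassium channel gene Kcnj8 at -0.29 (SE 0.13). Of 12 fibroblast markers 7 were higher and 5 lower, with a median of 0.070 and with Lum, a matrix proteoglycan, at 0.99 (SE 0.42). Of 5 platelet markers, 4 were higher and 1 lower (median 0.063; Gp9 at 0.12, SE 0.083), of 10 macrophage markers 7 and 3 (median 0.034; Cd68 at -0.14, SE 0.080), and of 6 lymphatic endothelial markers 4 and 2 (median 0.066; Pdpn at -0.29, SE 0.12). The 9 adipocyte markers had 7 higher and 2 lower means (median 0.028; Pck1 at 0.15, SE 0.12), and the 10 intestinal markers 5 and 5 (median 0.011; Krt8 at 0.21, SE 0.12). All 10 skeletal muscle markers had a lower mean in white adipose tumours (median -0.66, and -1.06 to -0.42 with 1 array left out; Ckm at -0.52, SE 0.18), and all 7 skin markers a higher one (median 0.35; Lor at 1.02, SE 0.86), the latter -0.19 without white adipose replicate 1.

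For each measured gene, the gene with the most similar pattern over the 6 arrays was sought among 10319 genes above the median signal, with predicted, clone-based, small RNA and olfactory or vomeronasal receptor symbols left out. By Pearson's r these were Abca5 for Angpt1 (0.99), Exoc2 for Angpt2 (0.98), Gramd1a for Tek (0.99), Cercam for Tie1 (0.99), Steap1 for Apln (0.99), Hlx for Aplnr (0.99) and Ltc4s for Thbs1 (0.99). With 6 arrays such values are common: between 31 genes, for Angpt2, and 245 genes, for Thbs1, had an r over 0.9 with the member. Steap1 stood at 8.48, 7.77 and 8.02 in non-adipose and 8.34, 7.16 and 7.35 in white adipose tumours, over much the same range as Apln. Exoc2, by contrast, ran only from 8.92 to 8.94 over all arrays.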

How the data were processed

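Total RNA of 6 mouse colorectal tumours was measured on 6 Affymetrix whole-transcript arrays after WT PLUS labelling, per the labels' protocols. The authors deposited log2 signals for 41345 probe sets; they were made with Affymetrix Expression Console, per the submitters' processing notes, and the sources used here do not state its version, its summarisation or its normalization. The scale was read from the values (0.973 to 13.6). No detection calls or scan batches were used, and the number of arrays limits the precision.

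Probe sets were named through the platform annotation: 23521 had exactly 1 symbol, 1814 several and 16010 none in it. The probe set with the highest mean was kept per gene, leaving 22180 genes. White adipose was compared with non-adipose, 3 arrays each, with limma 3.58.1 in R 4.3.3 (lmFit, eBayes) and Benjamini-Hochberg adjustment over all genes. The fit was tested on simulated data for this comparison and 22180 genes: it recovered 98.6% of 4-fold and 90.8% of 2-fold changes, for independent genes with no array apart. The changed genes were drawn at random over all genes. The rates are thus averages and do not give the recovery for genes as variable as Angpt1 and Apln. Exact permutation tests were two-sided. Array means of lists are means of log2 signals.

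The members and lists were chosen with earlier results of these data known. The text names all members, the nearest pattern of each member and a few defining markers. It also names the 2 genes with the smallest p of each pathway list and the 1 with the smallest p of each marker list. Angpt4, Ptprb, Klf4, Apela, Cd36, Cd47, Angptl4, Krt18, Cdh1 and Cdx2 were chosen after their values were seen. The same holds for the single skin markers other than Lor and the single hypoxia targets other than Car9 and Hilpda. Sequences came from the RefSeq promoter table, in which 4 of the 8 members had an entry. A planned correlation of Angptl2 with fibroblast markers was not run, since Angptl2 was not analysed here. Alternatives were array medians subtracted, quantile normalization, a filter on dim genes, a trended robust fit, array weights, mean of probe sets, a replicate block and each array left out.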

Additional observations from a re-analysis of the deposited data

How the results depend on the processing

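Over the alternatives, all 7 genes kept their sign and stayed short of the adjusted threshold, and 0 genes passed it in any of them, by limma. The count at an unadjusted p under 0.05, 368 higher and 473 lower in the reported fit, moved to 819 and 981 without white adipose replicate 1, 728 and 893 with array weights, and 298 and 342 without white adipose replicate 2. Tek gave no value under the filter on dim genes, lying below the median signal. With 1 array left out the log2 differences ran from 0.28 to 0.77 for Angpt1, 0.11 to 0.40 for Angpt2, 0.015 to 0.25 for Tek, 0.025 to 0.14 for Tie1, -0.90 to -0.28 for Apln, -0.49 to -0.20 for Aplnr and -0.25 to -0.086 for Thbs1. Without the muscle-marked non-adipose replicate 1 they were 0.53, 0.16, 0.015, 0.13, -0.35, -0.49 and -0.18, in the same order of genes. Without the muscle-marked non-adipose replicate 3 they were 0.77, 0.31, 0.18, 0.12, -0.51, -0.38 and -0.25. Unadjusted p-values under 0.05 in limma appeared for Angpt1 (0.0392) and Apln (0.0351) with array weights, for Aplnr with array medians subtracted (0.0461) or quantile normalization (0.0495), and with 1 array left out for Angpt1 (0.0204), Angpt2 (0.0190), Apln (0.0121) and Aplnr (0.0179). The cause was not tested.

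The replicate numbers are shared between sites, but deviations of same-numbered arrays correlated at 0.14, 0.064 and 0.064, so they were not taken to pair the tumours. With the replicate number as a block the differences were the same (Apln -0.53, Aplnr -0.36), the unadjusted limma p became 0.0249 for Apln and 0.0216 for Aplnr, and the smallest adjusted p was 0.885; the block gave 504 genes higher and 577 lower at an unadjusted p under 0.05, against 368 and 473. Replicates 1 and 2 correlated best with their own number at the other site, and non-adipose replicate 3 with white adipose replicate 2.

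Some list medians moved by more than the mean of the 2 sites' SDs of the list's array means. The lymphatic median became -0.031 and the intestinal one 0.18 under the filter on dim genes. That filter left 3 lymphatic and 3 intestinal genes, each with its difference unchanged. With array weights the intestinal median became 0.063. With 1 array left out the medians, moved by that measure or not, ran from 0.018 to 0.076 for the Tie pathway, -0.035 to 0.038 for the apelin pathway, -0.065 to 0.087 for the angiopoietin-like family, -0.13 to 0.080 for tip cell genes, -0.058 to 0.13 for macrophages, -0.026 to 0.071 for the intestinal list, -0.062 to 0.046 for endothelial, -0.20 to 0.0100 for pericyte, -0.00064 to 0.20 for fibroblast, -0.0082 to 0.12 for lymphatic, 0.036 to 0.11 for platelet, 0.00082 to 0.068 for adipocyte and -0.19 to 1.06 for skin markers, and -0.019 to 0.052 for the thrombospondin pathway.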
